A study of Physcomitrium patens with 6 samples.

Results

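The 3 genes ATX1 (Pp1s67_56V6.1), VIP3 (Pp1s22_260V6.1) and CHR4 (Pp1s223_99V6.1) of the moss Physcomitrella patens were followed through the development of the gametophyte. The study relates ATX1 and VIP3 to histone lysine methylation and CHR4 to chromatin remodelling. These are 3 of the 19265 gene models that were listed in at least 1 of the 6 libraries. They were chosen by their levels over the 4 days, since the study names each of them as highest on a particular day, and these levels are therefore given as a description, without a test. ATX1 was highest at day 14, with 34.6 normalized TPM, VIP3 at day 30, with 527, and CHR4 at day 3, with 24.0. The day of the maximum was the same when libraries were scaled by total tags, by DESeq2 size factors or by the deposited TPM.

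The transcripts were counted by digital gene expression tag profiling of gametophytes of subspecies patens that regenerated from protoplasts. The day series had 1 library each for day 3 (young chloronema with new cell walls), day 14 (chloronema and caulonema), day 24 (protonema with buds) and day 30 (plantlets with leafy gametophores, protonema and rhizoids) after protoplast isolation. A further library each was made from caulonemal and from chloronemal cells that were cut by laser out of live protonemata of day 14, and these captured tissues mixed dividing with non-dividing cells. The tissue label calls days 3, 14 and 24 leafy shoot, whereas the growth protocol and the methods call them protonema, and protonema is used here. Every library was a pool of 3 biological replicates, so that no replicate library stands beside any value, and all intervals below cover counting error only. Whole plantlets mix several cell types, and a lower level may be fewer cells of a type or less RNA per cell, which cannot be told apart.

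Plants pack their DNA around histones, and 3 kinds of protein that act on this packing are at issue. In Arabidopsis, ATX1 is a trithorax-type enzyme that places methyl groups on a lysine of histone H3 at active genes and binds a phosphoinositide lipid. VIP3 is a WD40-repeat protein of the Paf1 complex, which travels with RNA polymerase II and is needed for histone methylation along transcribed genes, and its loss makes Arabidopsis flower early. CHR4 is an ATPase of the SNF2 family, whose members slide or evict nucleosomes using the energy of ATP. These roles are known from Arabidopsis and other eukaryotes and were not measured here.

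The libraries held 1733082 to 7027742 tags assigned to genes. Day 30, caulonema and chloronema were the shallower ones, with 2281272, 2557991 and 1733082 tags, and 3 tags stood for 0.514 to 0.526 normalized TPM on the other days and for 0.976 to 1.71 in these. Normalized TPM are tags per 1000000 gene tags after scaling by the trimmed mean of M-values (TMM), and as each transcript gives a single tag they do not grow with transcript length. Over the 9003 genes with over 100 tags in some library, day 30 was ranked more like caulonema (Spearman 0.609) and chloronema (0.596) than like days 24, 3 and 14 (0.401, 0.381 and 0.368). The share of listed genes whose tag lay at the CATG site nearest the 3' end was 80.0% at day 30, 78.7% in caulonema and 77.8% in chloronema, against 61.4% to 66.5% on the other days. The part of these differences in the values below was not tested.

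Every listed gene comes with a 21-nt tag that starts at a CATG site, the recognition sequence of the enzyme used to cut the cDNA. The tags of the 3 genes are printed because they show where the listed tag of a gene was the same between libraries and where it was not. Capitals mark the CATG, and sites are numbered from the 3' end.
ATX1, site 1, all days and caulonema: CATGaatagagtgcacacttt
ATX1, site 3, chloronema: CATGaccgactcagattagtc
VIP3, site 1, all 6 libraries: CATGaagcaatgaatgtatca
CHR4, site 1, days 3, 14 and 30: CATGtctggtgttgaatccac
CHR4, site 17, day 24: CATGcttacgtcgtatgagat
CHR4, site 5, caulonema: CATGgagggtcactctattga
Only VIP3 had the same listed tag throughout. Each of these tags had at least 4 mismatches to every listed tag of another gene, and the authors allowed 1. Only listed tags were compared, and the authors had dropped tags that hit several genes. The mismatches therefore do not show that a tag is specific to its gene. According to the methods, the level of a gene is given by all tags mapped to it, so that the listed tag need not be the only tag counted.

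ATX1 had 39, 202, 48 and 14 tags at days 3, 14, 24 and 30, which came to 6.83, 34.6, 8.23 and 5.70 normalized TPM. The day 14 level had a 95% interval of 30.0 to 39.7 and lay above those of the other days (4.86 to 9.34, 6.07 to 10.9 and 3.12 to 9.56), which overlapped with each other. The gene was therefore at a low level at day 3, had a single maximum in the protonemata that had formed caulonema, and was back at the low level when buds were present. It was 5.06-fold (95% interval 3.58 to 7.32) higher at day 14 than at day 3, and 4.20-fold (3.05 to 5.88) lower at day 24 than at day 14. Day 30 was at 0.692 of day 24, with an interval of 0.352 to 1.28 that includes no difference. ATX1 stood at percentile 74.2 of the genes listed at day 14 and at percentiles 30.6 to 42.7 on the other days.

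VIP3 was the gene with the widest range of the 3, with 646, 771, 76 and 1294 tags at days 3, 14, 24 and 30. The levels were 113, 132, 13.0 and 527 normalized TPM, and none of their 95% intervals overlapped (105 to 122, 123 to 142, 10.3 to 16.3 and 498 to 556). Days 3 and 14 were close, at a ratio of 1.17 (1.05 to 1.30) that was 1.05 (0.945 to 1.17) when libraries were scaled by their total tags. The bud stage stood out as a trough, with VIP3 10.1-fold (7.99 to 13.0) lower at day 24 than at day 14, and the leafy stage as a peak, 40.4-fold (32.1 to 51.6) higher at day 30 than at day 24. Day 30 also exceeded the early stages, by 4.65-fold (4.23 to 5.12) over day 3 and by 3.99-fold (3.65 to 4.37) over day 14, or by 5.43-fold and 5.17-fold when total gene tags were used. In rank, VIP3 was number 235 of 14252 genes listed at day 30, and at percentile 52.9 at day 24. The same tag at site 1 was listed on all days.

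CHR4 was at its highest on the earliest day and near the limit of detection after day 14, with 137, 26, 8 and 6 tags at days 3, 14, 24 and 30. This corresponds to 24.0, 4.45, 1.37 and 2.44 normalized TPM, with 95% intervals of 20.1 to 28.4, 2.91 to 6.52, 0.592 to 2.70 and 0.896 to 5.32. Day 3 did not overlap with any later day, days 14 and 24 did not overlap with each other, and day 30 overlapped with both. CHR4 was 5.40-fold (3.53 to 8.55) lower at day 14 than at day 3, and 9.83-fold (4.40 to 27.2) lower at day 30 than at day 3, in each case with the same listed tag. The values for day 24, 17.5-fold (8.63 to 41.3) lower than day 3 and 3.24-fold (1.43 to 8.29) lower than day 14, set a listed tag at site 17 against one at site 1. Day 30 over day 24 was 1.78 (0.509 to 5.85), with 6 and 8 tags, and no difference was detectable at this depth.

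**Figure D1:**
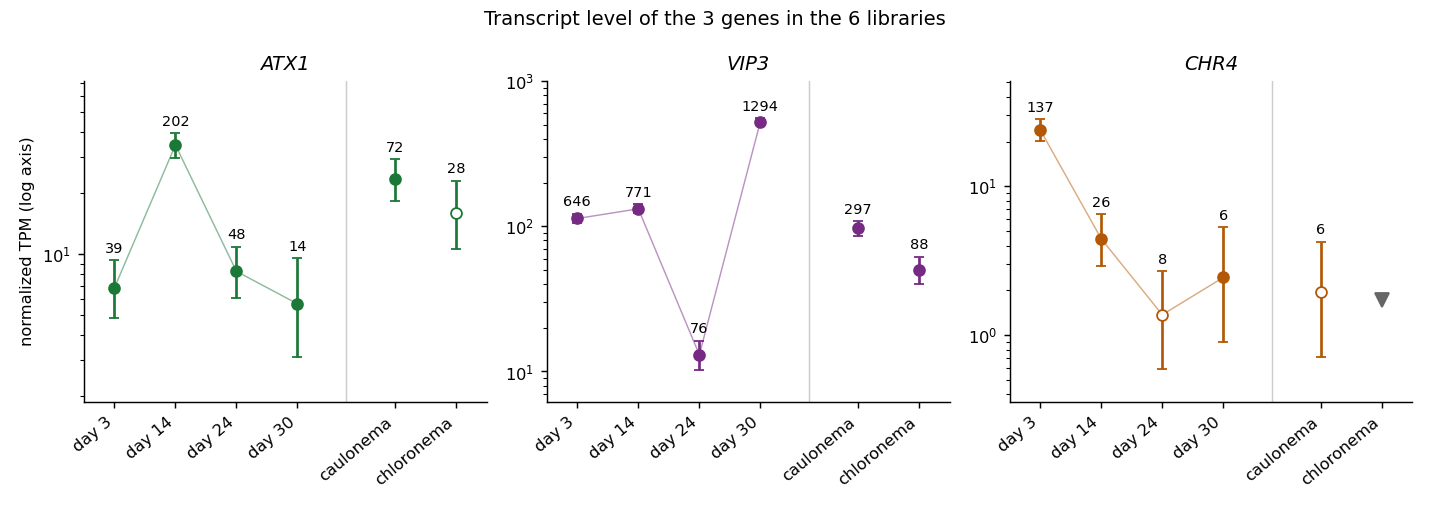
Normalized TPM (log axis, a different range in each panel) of ATX1, VIP3 and CHR4 in the 6 libraries, with exact Poisson 95% intervals and the tag count above each point. Filled points have their listed tag at the CATG site nearest the 3' end and open points at another site, the grey triangle is the level of 3 tags in chloronema, where CHR4 was not listed, and each gene peaks on another day: ATX1 at day 14 (34.6), VIP3 at day 30 (527) and CHR4 at day 3 (24.0).

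To place these ratios among all genes, a gene was called when it had over 100 tags in at least 1 of the libraries compared, differed by over 2-fold, and had p under 0.01 and an adjusted p under 0.001 in an exact two-sided binomial test of its tags (Benjamini-Hochberg over the genes tested), which compares libraries and not conditions. At day 14 over day 3, all 3 genes had over 100 tags, and ATX1 (higher) and CHR4 (lower) passed the thresholds, as did 20.1% and 20.3% of the 7710 genes tested in these directions. At day 24 over day 14, ATX1 and VIP3 had over 100 tags and both passed as lower, as did 26.4% of 7913 genes, while 23.2% were higher. At day 30 over day 24, VIP3 alone had over 100 tags and passed as higher, as did 23.2% of 7267 genes, while 39.3% were lower. Since the days chose the genes, nothing is read from these counts.

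The position among all genes differed more than the calls. It too is given as a description only, since the days chose the genes. The day 30 over day 24 ratio of VIP3 was number 76 from the top of 7267, far outside the range that held the central part of all genes (5th to 95th percentile, 0.0502 to 9.55), and its day 24 over day 14 ratio was number 152 from the bottom of 7913. ATX1 at day 14 over day 3 was number 414 from the top and CHR4 number 423 from the bottom of 7710, just inside the 5th to 95th percentile of 0.171 to 5.27. ATX1 at day 24 over day 14 was number 726 from the bottom of 7913. On the log2 scale, the median of all tested genes was 0.07 at day 14 over day 3 and -0.06 at day 24 over day 14. At day 30 over day 24 it was -0.48. The tag threshold for testing applied to raw tags, and the day 30 library was much shallower than that of day 24. Genes higher at day 24 therefore entered more easily, so a shift of the genes as a whole cannot be read from this median.

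**Figure D2:**
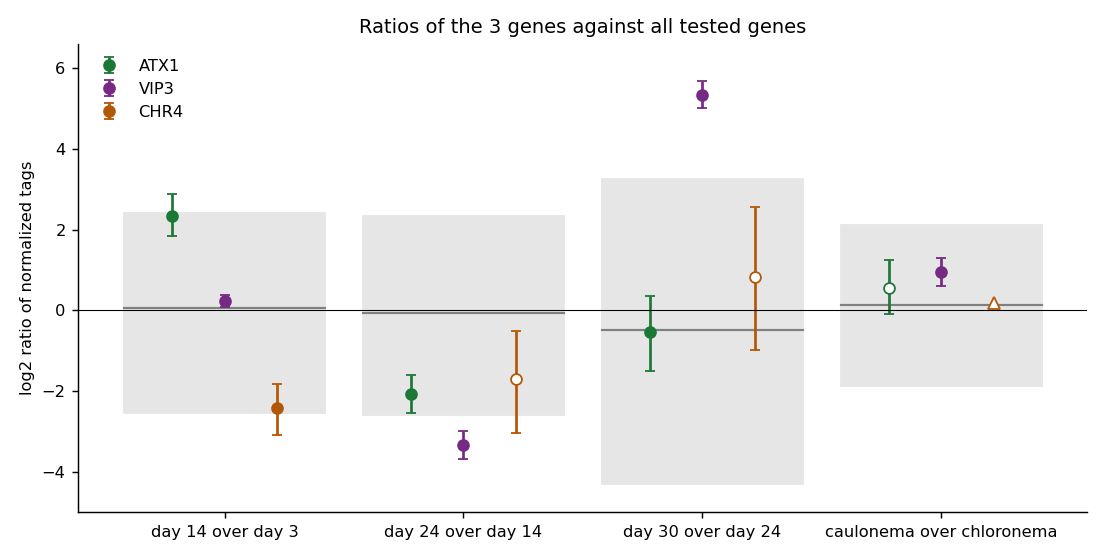
Log2 ratios of ATX1, VIP3 and CHR4 in the 4 comparisons, with exact binomial 95% intervals, over grey boxes that span the 5th to 95th percentile of all tested genes and grey lines at their median. Open circles have listed tags at different CATG sites and the open triangle is the ratio of CHR4 to a floor of 3 tags, and VIP3 at day 30 over day 24 (log2 5.34) and at day 24 over day 14 (log2 -3.34) lies outside the boxes.

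The captured tissues were not part of the choice of days, and here the tags were tested. Caulonema is made of long, fast-growing cells with few chloroplasts, and chloronema of shorter cells rich in chloroplasts. VIP3 had 297 tags in caulonema and 88 in chloronema. These came to 96.6 and 50.2 normalized TPM, with 95% intervals of 86.0 to 108 and 40.2 to 61.8. VIP3 met the tag threshold for testing in caulonema, the deeper library, and not in chloronema. It was 1.93-fold (1.51 to 2.47) higher in caulonema (exact two-sided binomial test, p = 1.56e-08, Benjamini-Hochberg adjusted p = 3.74e-08 over 4292 genes), which was under the 2-fold threshold, so that VIP3 was not called. It passed that threshold when libraries were scaled by total gene tags (2.29-fold) or by the deposited TPM (3.26-fold), with adjusted p of 1.32e-12 and 1.98e-25. In edgeR exact tests that assumed a coefficient of variation of 0.2 or 0.4 between libraries, the adjusted p was 0.0926 or 0.678. Of all tested genes, 21.8% were called higher and 16.5% lower in caulonema. Genes higher in the deeper library entered the test more easily, so the larger share of higher calls is not read as a tissue difference.

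ATX1 had 72 tags in caulonema and 28 in chloronema, or 23.4 and 16.0 normalized TPM, with intervals of 18.3 to 29.5 and 10.6 to 23.1 that overlapped. The ratio was 1.47 (0.936 to 2.36, exact binomial p = 0.0958 without adjustment, 2.48 with an interval of 1.58 to 3.99 by the deposited TPM), and with 100 tags or fewer in both libraries the gene was not among those tested. The listed tag was at site 1 in caulonema and at site 3 in chloronema. CHR4 had 6 tags in caulonema, with a listed tag at site 5, and was not listed in chloronema, for which a floor of 3 tags was taken, or 1.71 normalized TPM. The ratio of caulonema to that floor was 1.14, and 1.93 by the deposited TPM. Intervals were taken from the counts themselves, 6 against 0, and not from the floor. They ran from 0.672 upwards, and from 1.14 upwards by the deposited TPM. A count of 6 against 0 gave an exact binomial p of 0.0931 after TMM scaling, so that no difference was detectable at this depth.

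Markers of the tissues were examined in the captured libraries. Of 57 genes with photosystem in a GO term, 46 were tested, of which 4 were called higher and 7 lower in caulonema, beside 21.8% and 16.5% of all genes, at a median log2 ratio of -0.09 against 0.13 for all tested genes. Their levels summed to 21429 normalized TPM in caulonema and 26832 in chloronema, and 2 of the genes were at 0 in both. No gene was annotated as a homologue of the RSL or RHD6 root-hair regulators, which are markers of caulonema. The part of tissue purity in the ratios of the 3 genes was not tested.

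Against the whole protonemata of day 14, from which they were cut, both captured tissues had lower values of each gene after TMM scaling. ATX1 was at 0.678 (0.511 to 0.891) of the day 14 level in caulonema and at 0.462 (0.299 to 0.688) in chloronema. The ATX1 value in chloronema set a listed tag at site 3 against one at site 1. VIP3 was at 0.733 (0.639 to 0.839) in caulonema and at 0.380 (0.302 to 0.475) in chloronema. CHR4 was not listed in chloronema, against 26 tags at day 14. In caulonema it was at 0.439 (0.148 to 1.09), an interval that includes no difference, with listed tags at site 5 against site 1. These differences in caulonema depended on the scaling. By total gene tags ATX1 was at 0.979 (0.738 to 1.29) and VIP3 at 1.06 (0.923 to 1.21) of the day 14 level in caulonema, and by the deposited TPM VIP3 was at 0.931 (0.812 to 1.07), intervals that include no difference. The captured libraries were made from less RNA than those of the days, and cell type and library preparation cannot be told apart here.

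The annotation that came with the gene models fits the names to different degrees. CHR4 has an SNF2 family DNA-dependent ATPase as its best database match (E-value listed as 0) and carries the GO term chromatin organization with 29 other genes. VIP3 matches an unnamed predicted protein (E-value listed as 0) and carries histone lysine methylation, flower development and cullin-RING ubiquitin ligase complex. ATX1 matches a predicted protein at an E-value of 3.02e-71, and carries protein-lysine N-methyltransferase activity, phosphatidylinositol binding, histone lysine methylation and flower development, but also cation binding and cation transport. The symbol ATX1 is used for the trithorax-type methyltransferase of Arabidopsis and also for a small copper chaperone. Which of them Pp1s67_56V6.1 resembles was not tested. Of the 15 genes with histone lysine methylation, 5 carry cation transport as well, and these 5 have the same full set of terms.

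Gene models annotated by name as trithorax-like histone-lysine N-methyltransferases were hardly detected. There were 3 of them, Pp1s282_23V6.1, Pp1s81_182V6.1 and Pp1s93_144V6.1, none with cation transport, and their highest counts in any library were 11, 5 and 5 tags. None was listed at day 14, where ATX1 had 202 tags. These genes, and those set beside ATX1, VIP3 and CHR4 here and in the accounts of the Paf1 complex and the SNF2 family, were singled out after their values had been seen. The 4 genes with the same terms as ATX1 did not share its maximum. Pp1s55_32V6.1 had 230, 133, 195 and 261 tags at days 3, 14, 24 and 30, that is 40.3, 22.8, 33.4 and 106 normalized TPM, with day 14 as its lowest day. Pp1s155_55V6.1 had 13, 13, 22 and 41 tags, Pp1s486_3V6.1 was listed only at days 24 and 30, with 18 and 28 tags, and Pp1s239_9V6.1 only in chloronema, with 3. A further gene with the terms for lysine methylation and phosphatidylinositol binding, Pp1s106_39V6.1, also carries copper ion binding and was abundant throughout, with 4273, 5338, 4555 and 3056 tags on the 4 days.

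The partners of VIP3 were examined next. For the Paf1 complex, 6 gene models were listed, 2 for the subunit Cdc73 and 4 for a Paf1 complex protein. The 2 of them with over 100 tags at day 24 or day 14 were the 2 Cdc73 models, which belong to 1 locus. They were at 0.708 and 0.844 of day 14 at day 24, and neither was called, while VIP3 was at 0.0988. No model of another subunit was tested in this comparison. The other 4 had too few tags to be tested, among them Pp1s46_276V6.1 with 3 tags at day 24 and 12 at day 14. At day 30, Pp1s38_293V6.1 had 136 tags, against 65 at day 24, and was 4.97-fold higher. The Cdc73 model Pp1s14_240V6.2 had 2 tags at day 30 and 108 at day 24, with listed tags at site 1 and site 2, whereas Pp1s14_240V6.1 of the same locus had 71 and 85. The summed level of the 6 models was 89.0, 70.7, 60.9 and 121 normalized TPM at days 3, 14, 24 and 30, and thus also lowest at day 24 and highest at day 30, over a narrower range than that of VIP3. The 8 genes named for the COMPASS complex, which methylates histone H3 in yeast and animals, had at most 93 tags in any library and were not tested.

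CHR4 belongs to a family with many listed members. Among 32 other SNF2 family gene models, 29 were listed at day 3, 23 at day 14, 27 at day 24 and 19 at day 30. Of the 5 tested at day 14 over day 3, none was called higher and 3 were called lower, beside 20.1% and 20.3% of all genes. At day 24 over day 14, 3 of the 6 tested were called higher and 1 lower, beside 23.2% and 26.4% of all genes, while CHR4 had too few tags there to be tested. The summed levels of the 32 models were 254, 153, 253 and 186 normalized TPM at days 3, 14, 24 and 30. At day 30 over day 24, 3 of 5 were called lower and none higher, beside 39.3% and 23.2% of all genes. Pp1s123_125V6.1, for example, had 246, 105, 182 and 11 tags at days 3, 14, 24 and 30. No SNF2 family model had over 100 tags at day 30 (at most 94), so all 5 entered this comparison through day 24. That left little room for a higher call, and the split at day 30 over day 24 is read no further. The 3 models named chromodomain helicases, the subfamily of CHR4 in Arabidopsis, had at most 20 tags.

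**Figure D3:**
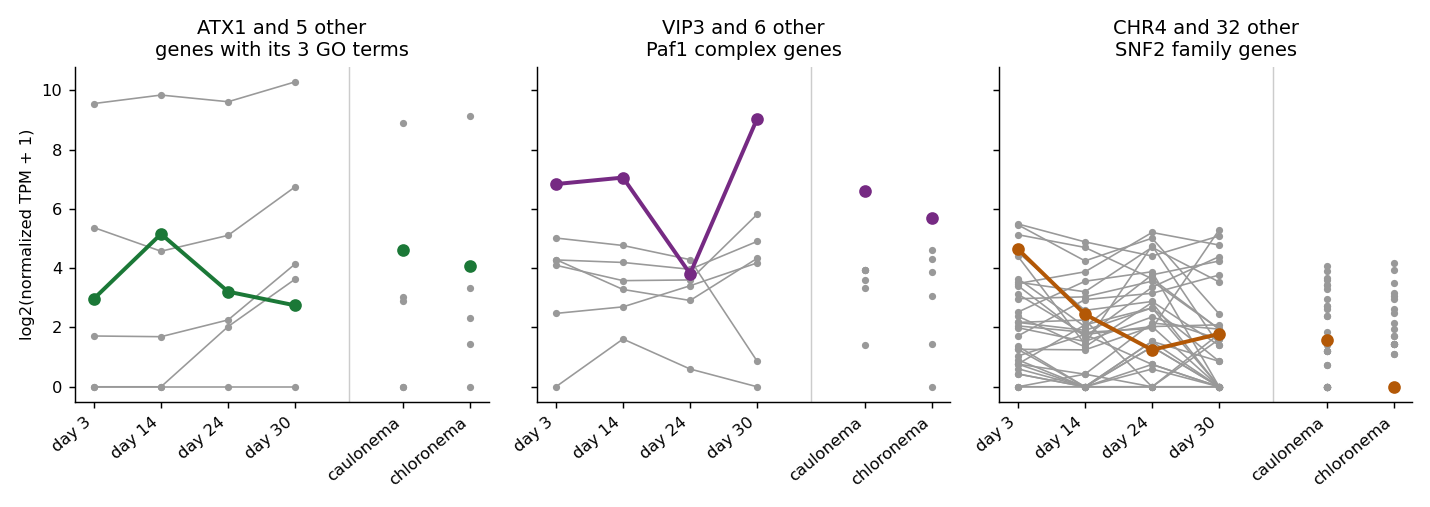
Levels, as log2(normalized TPM + 1), in the 6 libraries of ATX1 with 5 other genes that carry its terms for lysine methylation and phosphatidylinositol binding, VIP3 with 6 Paf1 complex gene models, and CHR4 with 32 other SNF2 family gene models. The coloured line is the named gene and grey lines are the others. The VIP3 trough at day 24 (13.0 normalized TPM) stands beside Paf1 complex models. The 2 of these that were tested, both of the Cdc73 locus, were at 0.708 and 0.844 of day 14 at day 24.

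A wider list held 197 other genes annotated for histone methylation, chromatin remodelling, histone acetylation, histones, WD40 and Paf1 complex proteins or other chromatin functions. At day 14 over day 3, 65 of them were tested, of which 9 were called higher and 12 lower, at a median log2 ratio of -0.09 against 0.07 for all genes. At day 24 over day 14, it was 12 higher and 21 lower of 64 (median -0.31 against -0.06), and at day 30 over day 24, 9 higher and 25 lower of 52 (median -0.82 against -0.48). In caulonema over chloronema, 4 were higher and 3 lower of 22 (median -0.24 against 0.13). Of all tested genes, 20.1%, 23.2%, 23.2% and 21.8% were called higher in these 4 comparisons. The shares called lower were 20.3%, 26.4%, 39.3% and 16.5%. The splits of the list depended on the scaling. With total gene tags they were 14 higher and 16 lower at day 24 over day 14, and 6 higher and 1 lower in caulonema. With the deposited TPM, 10 were higher and 1 lower in caulonema. Whether the list differed from all genes was not tested. As the splits changed with the scaling, and genes higher at day 24 entered the comparison with day 30 more easily, the counts are read no further. Of the 74 list genes with over 100 tags on some day, 32.4% were highest at day 3, 25.7% at day 14, 17.6% at day 24 and 24.3% at day 30, against 23.1%, 26.3%, 24.9% and 25.7% of 8861 genes.

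The counts differed between the groups within the list. Chromatin remodelling genes other than CHR4 had 0 higher and 5 lower of 10 at day 14 over day 3, 5 higher and 1 lower of 11 at day 24 over day 14, and 0 higher and 5 lower of 10 at day 30 over day 24. Of all genes, 20.1%, 23.2% and 23.2% were higher and 20.3%, 26.4% and 39.3% lower in these comparisons. The small numbers tested in each group were read no further. No chromatin remodelling gene met the tag threshold for testing at day 30 (at most 97 tags). All 10 tested at day 30 over day 24 therefore entered through day 24. That left little room for a higher call, so the absence of higher calls there is not read as a feature of the group. An SWI/SNF class remodelling protein, Pp1s25_252V6.1, had 54 tags at day 14 and 315 at day 3 and was 5.97-fold (4.46 to 8.13) lower. Histone methylation genes other than ATX1 and VIP3 had 0 higher and 1 lower of 6 at day 14 over day 3, the lower one being a Polycomb group protein (Pp1s100_146V6.1, 88 tags at day 14 and 297 at day 3, 3.46-fold lower), 3 higher and 0 lower of 7 at day 24 over day 14, and 1 higher and 4 lower of 7 at day 30 over day 24. The Polycomb group is known for keeping genes silent, in opposition to trithorax proteins.

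Histones, the proteins around which the DNA is wound, had 5 higher and 0 lower of 13 at day 14 over day 3 (20.1% and 20.3% of all genes), and 0 higher and 6 lower of 13 at day 24 over day 14 (23.2% and 26.4% of all genes), the rest not being called. Counted among the other chromatin functions and not among these 13, a gene matched to histones H3 and H4 (Pp1s35_164V6.1) had 502 tags at day 14 and 6 at day 3, 81.7-fold (37.3 to 224) higher, and a histone chaperone (Pp1s319_51V6.1), which hands histones to DNA, had 767 and 70 tags, 10.7-fold (8.37 to 13.9) higher. Histone H2B (Pp1s37_236V6.1) had 233 tags at day 24 and 1049 at day 14, 4.49-fold lower, then 555 at day 30, which was 5.65-fold (4.84 to 6.62) higher than at day 24. At day 30 over day 24, 1 histone gene was higher and 4 lower of 9 (23.2% and 39.3% of all genes), among them a histone H3 variant (Pp1s3_594V6.1, 51 tags at day 30 and 432 at day 24, 3.57-fold lower). In caulonema, 2 of 6 histone genes were lower and none higher than in chloronema (16.5% and 21.8% of all genes), namely H2B (716 and 964 tags, 2.36-fold lower) and H4 (Pp1s83_240V6.1, 85 and 202 tags, 4.16-fold lower). H2B was no longer called by total gene tags (1.99-fold lower) or by the deposited TPM (1.39-fold lower), and H4 was called under both.

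Genes that add or remove acetyl groups on histones had 3 higher and 5 lower of 10 at day 24 over day 14, beside 23.2% and 26.4% of all genes. A histone deacetylase catalytic component (HDA1, Pp1s142_41V6.1) had 416 tags at day 24 and 167 at day 14, 2.50-fold (2.08 to 3.01) higher, and the Elongator subunit ELP3 (Pp1s167_46V6.1) had 284 and 97 tags, 2.93-fold (2.32 to 3.73) higher. A plant-specific HD2 type deacetylase (Pp1s183_93V6.1) had 149 and 885 tags, 5.93-fold (4.98 to 7.10) lower. At day 30, the p48 subunit of a nucleosome remodelling factor (Pp1s12_351V6.1) had 91 tags, against 536 at day 24, 2.48-fold lower but with listed tags at different CATG sites. A YKT6-family R-SNARE (Pp1s54_197V6.1), a membrane fusion protein that entered the list through a GO term, had 467 tags at day 30 and 329 at day 24, 3.37-fold higher, also with listed tags at different sites. An unnamed protein (Pp1s3_368V6.1) had 152 tags in caulonema and 31 in chloronema, 2.80-fold (1.89 to 4.26) higher.

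**Figure D4:**
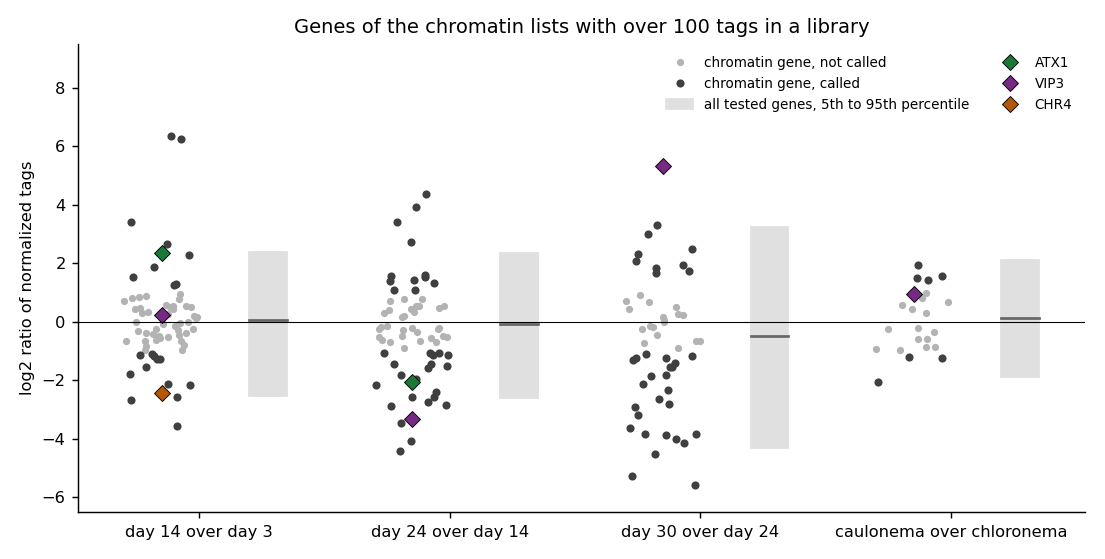
Log2 ratios of the chromatin list genes with over 100 tags in a library of the comparison (points, dark where called) and of the named genes that were tested (diamonds), beside grey bars for the 5th to 95th percentile of all tested genes with a line at the median. VIP3 at day 30 over day 24 (log2 5.34) lies above every other gene of the list in that comparison, and ATX1 and CHR4 at day 14 over day 3 (log2 2.34 and -2.43) lie within the spread of the list.

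The genes most like each of the 3 in pattern were found by the root mean square difference of their log2(normalized TPM + 1), each centred on its own mean, over the 6 libraries among 9003 genes. For ATX1 they were Pp1s201_15V6.2 (0.22), a gene for the photosystem II protein PsbY (Pp1s221_76V6.3, 0.23) and Pp1s138_83V6.1 (0.27). PsbY had 300, 1266, 486 and 103 tags at days 3, 14, 24 and 30, with 664 in caulonema and 193 in chloronema. For VIP3 they were Pp1s473_1V6.1 (0.28), Pp1s24_109V6.1 (0.35) and a Rab18/RabC-family small GTPase of vesicle transport (Pp1s15_311V6.1, 0.38). The GTPase gene had 238, 230, 25 and 422 tags at days 3, 14, 24 and 30. Its likeness to VIP3 in trough and peak follows from how it was picked. For CHR4 they were Pp1s2_312V6.1 (0.26), which the study names as a putative MYB transcription factor, Pp1s376_26V6.2 (0.35) and Pp1s293_91V6.1 (0.40). Pp1s2_312V6.1 had 146, 18, 6 and 3 tags at days 3, 14, 24 and 30. Among the 9003 genes ranked by likeness to VIP3, CHR4 was number 3605 and ATX1 number 4523, and among those ranked by likeness to ATX1, CHR4 was number 7545. The 3 genes had been chosen for peaks on different days.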

How the data were processed

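Per the methods, the authors removed adaptor-only, ambiguous, wrongly sized and single-copy tags, matched 21-nt tags to Phytozome gene models with at most 1 mismatch, and dropped tags that hit several genes. The methods name blastn and the submitters' processing notes name Bowtie for this, with no version. The deposited tag counts per gene are whole numbers, the lowest listed being 2, and the deposited TPM values are these counts per 1000000 tags of the library. An unlisted gene was taken as 0 with a floor of 3 tags.

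From the counts, libraries were scaled by TMM (edgeR 4.0.16, R 4.3.3), and ratios were given exact binomial and levels exact Poisson intervals at 95% (scipy 1.17.1, Python 3.11.15), which cover counting error only, since PCR copies are not independent molecules. With 1 library per condition, a quasi-likelihood test could not be fitted, and the exact two-sided binomial test was used with the study's thresholds. The binomial test was tried on simulated Poisson counts without variation between libraries, which is what the test itself assumes. That trial therefore cannot show how the test behaves when libraries vary. Members, gene lists and tests were chosen with earlier results of these data known, and a few genes were moved between lists, without changing their union, after the files were seen. Besides the 3 genes, the text names the 3 nearest patterns of each and, per comparison and direction, the 2 called list genes with the most tags whose best match is not called a predicted protein; further genes are marked where they appear. As alternatives, libraries were scaled by their total tags, by size factors from DESeq2 1.42.0, by the deposited TPM or by the study's internal control genes, and calls were made with no filter, a 4-fold threshold, equal tag sites and edgeR tests with assumed variation. None of the gene identifiers matched the RefSeq table, so no coordinates, promoters or proteins are given.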

Additional observations from a re-analysis of the deposited data

How the results depend on the processing

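The ratios between consecutive days of ATX1, VIP3 and CHR4 kept their direction and stayed within their intervals under every scaling tried (total gene tags, DESeq2 size factors, deposited TPM, an internal control gene). Of the other pairs, in alternatives added after the data were seen, VIP3 was 5.43 at day 30 over day 3 and 5.17 at day 30 over day 14 with total gene tags and 4.44 at day 30 over day 14 with DESeq2, and 0.286 in chloronema over day 14 with the deposited TPM. The ratio of caulonema over chloronema moved: for ATX1 it was 2.48 with the deposited TPM and 2.48 with the control gene, and for VIP3 it was 2.29 with total gene tags (adjusted p = 1.32e-12), 3.26 with the deposited TPM (adjusted p = 1.98e-25) and 3.25 with the control gene, against 1.93, and CHR4 against the floor was 1.93 with both the deposited TPM and the control gene. The median log2 ratio of all tested genes was 0.13 with TMM, 0.38 with total tags, 0.04 with DESeq2 and 0.89 with the deposited TPM. In edgeR exact tests with assumed coefficients of variation of 0.2 and 0.4, the VIP3 ratio of 1.93 had adjusted p values of 0.0926 and 0.678. Chromatin list genes called numbered 21, 33, 34 and 7 of 65, 64, 52 and 22 tested in the 4 comparisons (days in order, then the captured tissues). They numbered 48, 60, 68 and 23 with no filter on low counts, and 10, 14, 20 and 1 at 4-fold. The shares of all genes under these 2 alternatives are not given here, and the counts are read no further. For the captured tissues they were 11 (10 higher, 1 lower) with the deposited TPM, 6 higher and 1 lower with total tags and 4 and 5 with DESeq2, against 4 and 3, and for day 24 over day 14 they were 14 higher and 16 lower with total tags, against 12 and 21. The cause was not tested. Without a filter, an alternative added after the data were seen, ATX1 and CHR4 had adjusted p values of 0.185 and 0.180 in caulonema over chloronema. Summing the gene models of a locus changed nothing, as each of the 3 loci has 1 listed model. No paired analysis was possible because each condition has 1 library, and no library could be left out. The depth of day 30 and of the captured tissues limits ATX1 and CHR4, with at most 72 tags there.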
